A study of Mus musculus with 6 samples.

Results

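The 9 genes described here code for 3 Janus kinases (Jak1, Jak2 and Tyk2), 3 STAT transcription factors (Stat2, Stat3 and Stat6) and 3 feedback inhibitors of the SOCS family (Socs1, Socs3 and Cish). They were selected by symbol, and are 9 of the 49315 genes of the count table. RNA had been sequenced from RAW264.7, a macrophage-like mouse line labelled wild type, after 24 h with SKI-II at 4 μg/mL or with its vehicle DMSO, in 3 libraries each. SKI-II is a small molecule best known as an inhibitor of sphingosine kinases. Every library came from this 1 line, and no cytokine was named among the treatments.

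Cytokine receptors of this pathway have no kinase of their own, and a pair of JAKs bound to their tails phosphorylates the receptor and then the STATs that dock on it. Phosphorylated STATs pair, enter the nucleus and switch on genes, among them those of the SOCS proteins and CIS (the product of Cish), which block the kinases or the receptor and close the loop. In macrophages, interferons signal through JAK1 with TYK2 or JAK2, the IL-6 and IL-10 families through STAT3, and IL-4 and IL-13 through STAT6. What was measured was mRNA, so phosphorylation of the kinases and STATs was not measured.

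STAT dimers bind a palindrome named GAS, with the letters TTCNNNGAA, and STAT6 also binds a form with a spacer of 4 bases, TTCNNNNGAA. These letters were searched on both strands of the RefSeq promoters of GRCm38.p6, from 250 bases before to 50 bases after each start, and all 9 genes had a promoter there. A match was present for Socs3, Cish and Stat2, and there was none in this window for Socs1, Jak1, Jak2, Tyk2, Stat3 and Stat6. Over 32851 promoters of the same length, the GAS letters were in 8.30% and the 4-base form in 6.95%, so each match is a description of the letters and not a site shown to be used. The GAS stretches of both SOCS genes are shown because they carry the letters by which such genes are known to answer STATs. They run 5′ to 3′ on the gene's strand, with the matches in capitals.
Cish, chr9:107296654-107296683, plus strand: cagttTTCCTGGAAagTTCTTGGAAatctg
Socs3, chr11:117969492-117969540, minus strand: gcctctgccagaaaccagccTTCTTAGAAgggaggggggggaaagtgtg
The Cish stretch held 2 GAS matches, at bases 1 and 12 from the RefSeq start, and lay in the first exon of a longer GENCODE transcript. The Socs3 match began 154 bases before the start, in an intron of 1 longer transcript. In Stat2 a 4-base form began 210 bases before the start, upstream of every GENCODE transcript of the gene.

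The libraries held 12495957 to 20050677 counts, of which the 9 genes took 9009 to 14187. Counts were scaled to a common library of 16042438, and values given below as normalized counts are on that scale. All 9 macrophage markers checked were detected, with 2 called higher and 3 lower under SKI-II, and their summed normalized counts were 138780 to 203230 in DMSO and 87099 to 123790 in SKI-II. Lyz2 alone gave 88328 to 150574 of these and then 23620 to 61283, and the other 8 markers summed to 48231 to 52655 and then 58168 to 63479. Markers of T cells, B cells, dendritic cells and fibroblasts summed to 0 to 17.9 normalized counts in any library, and those of neutrophils to 30.2 to 112, nearly all from S100a8. The part of the macrophage markers in the results below was not tested. In bulk RNA, fewer cells that express a gene and less of its mRNA per cell cannot be told apart.

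Of the 9 genes, 7 had enough reads to be tested, and Socs1 and Cish did not. Jak2 was higher and Tyk2 lower after SKI-II, both by less than 2-fold, and the other 5 were not called. With edgeR's quasi-likelihood test at an adjusted p below 0.05, 1 of 7 (14.3%) was thus called higher, where 18.4% of the 12274 tested genes were, and 1 of 7 was called lower, where 19.7% were. A call with a log2 fold change beyond 1, up or down, was made for 15.7% of tested genes by edgeR and for 0 of these 7, as by DESeq2 and limma-voom, and at an unadjusted p below 0.05 it was also 0. The groups did not overlap for 2 of 7 genes (28.6%), against 50.3% of tested genes. The median log2 fold change of the 7 was -0.018, beside 0.0038 over all tested genes. These shares are near or below those of the transcriptome as a whole.

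**Figure D1:**
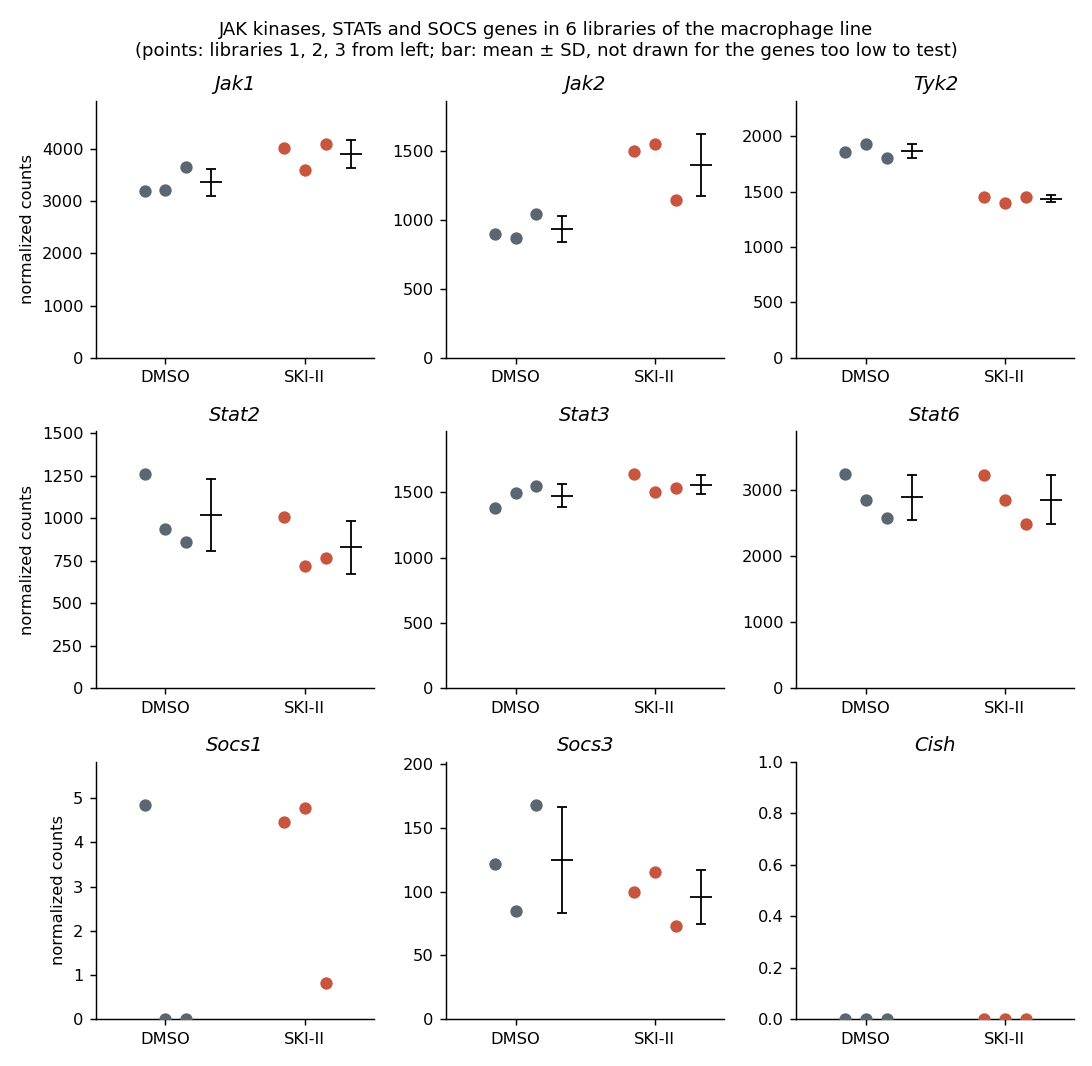
Normalized counts (y axis, from 0, on a scale of its own in each panel) of the 9 genes in the 3 DMSO and 3 SKI-II libraries, with libraries 1, 2 and 3 from left to right; the bars are the mean ± SD and are left out for Socs1 and Cish. The groups are apart for Jak2 and Tyk2 and overlap for the others, and Cish is at 0 in all 6 libraries.

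Jak2 encodes the kinase that serves interferon-gamma, GM-CSF, IL-3 and IL-12 receptors, among others (ENSMUSG00000024789, chr19:29251828-29313080, plus strand, GENCODE M21 on GRCm38). It was read at 895, 864 and 1044 normalized counts in DMSO replicates 1, 2 and 3, and at 1496, 1551 and 1140 in SKI-II replicates 1, 2 and 3. The groups did not overlap, though SKI-II replicate 3, the lowest of its group, was only just above DMSO replicate 3, the highest of the other. The mean went from 934 ± 96.0 to 1395 ± 223 (SD, n = 3 each), a log2 fold change of 0.58 (SE 0.15, 95% interval 0.24 to 0.91) or 1.49-fold, with an edgeR adjusted p of 0.0128. The call was lost without DMSO replicate 2 (adjusted p = 0.0693) and without SKI-II replicate 2 (0.0588), with log2 fold changes of 0.52 and 0.50.

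Tyk2 encodes the kinase bound to the type I interferon, IL-10, IL-12 and IL-23 receptors (ENSMUSG00000032175, chr9:21104068-21131243, minus strand). Its normalized counts were 1859, 1934 and 1807 in DMSO replicates 1 to 3 and 1457, 1403 and 1453 in SKI-II replicates 1 to 3. All 3 SKI-II libraries lay below all 3 DMSO libraries, and the libraries within a group were close to each other. The mean fell from 1867 ± 64.0 to 1437 ± 30.1 (SD, n = 3 each), a log2 fold change of -0.38 (SE 0.11, 95% interval -0.62 to -0.14) or 0.770-fold, with an edgeR adjusted p of 0.0195. The call was lost without DMSO replicate 2 (adjusted p = 0.0946, log2 fold change -0.36), without SKI-II replicate 2 (0.0752, -0.36) and with no filter on low counts (0.0638, -0.38). An antisense gene, 1700084C06Rik, shares 554 exon bases with Tyk2 on the opposite strand and had 17 counts over all 6 libraries, and the strandedness of the counting is not given in the sources used here.

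Jak1, the kinase shared by the interferon, gp130 and common gamma chain receptors, was the most abundant JAK (ENSMUSG00000028530, chr4:101152367-101265282, minus strand). It stood at 3200.4, 3219 and 3654 normalized counts in DMSO and at 4011, 3602 and 4099 in SKI-II, in replicate order. The highest DMSO library, replicate 3, lay above the lowest SKI-II library, replicate 2. The means were 3358 ± 256 and 3904 ± 265 (SD, n = 3 each), and the log2 fold change of 0.22 (95% interval -0.048 to 0.48) was not called (edgeR adjusted p = 0.178).

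Jak2 and Tyk2 were also set against each other, a pair chosen after their values were seen and so given with no test. In DMSO there were 0.481, 0.447 and 0.578 Jak2 counts for each Tyk2 count, and in SKI-II 1.03, 1.11 and 0.785, in replicate order. The mean was 0.502 ± 0.0678 in DMSO and 0.972 ± 0.167 in SKI-II (SD, n = 3 each), and no library of one group reached the range of the other. This ratio needs no scaling between libraries, since both counts come from the same one. Its separation was fixed once the groups were apart upward for Jak2 and downward for Tyk2, so it adds no support to either call.

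Levels of different genes can be compared only per length, so normalized counts were divided by the kilobases of merged exon. On that scale Jak1 held 44.0% ± 1.19 of the total of the 4 JAK genes in DMSO and 46.9% ± 2.87 in SKI-II (SD, n = 3 each), with Jak3, the kinase of the common gamma chain, as the fourth. The share of Jak2 was 17.6% ± 0.933 and 24.1% ± 3.78, with no overlap between the groups. That of Tyk2 was 23.6% to 27.6% in DMSO and 17.8% to 18.7% in SKI-II. Jak3 itself took 12.1% to 13.2% and then 10.1% to 11.4%, with a log2 fold change of -0.096 (95% interval -0.38 to 0.18, edgeR adjusted p = 0.584). The shares of a family are not independent of each other, because they have 1 total.

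**Figure D2:**
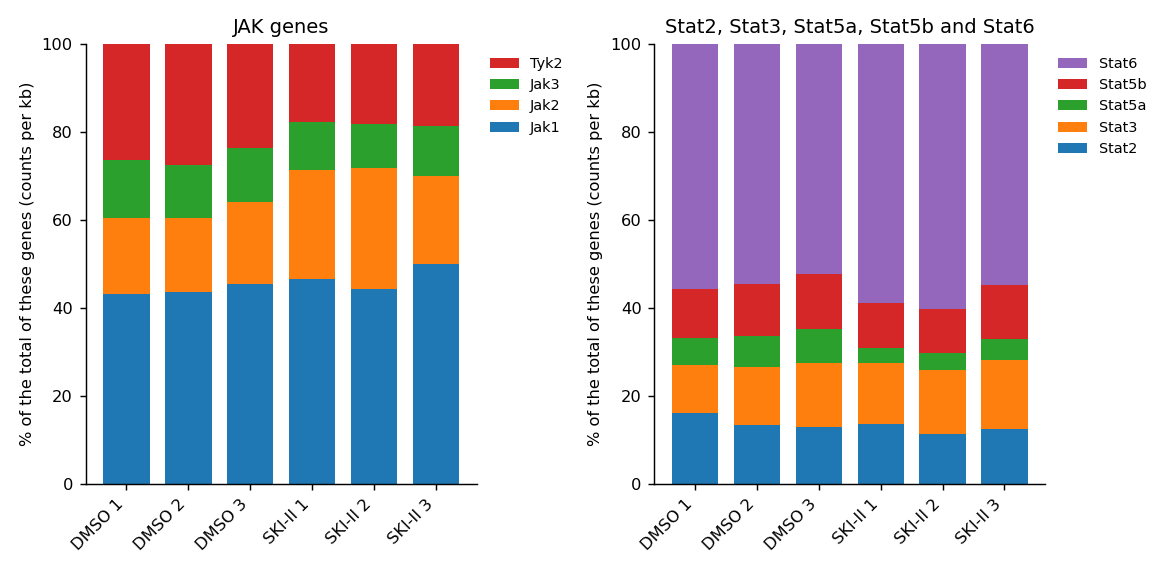
Share of each of the 4 JAK genes (left) and of each of 5 STAT genes (right) in the summed normalized counts per kilobase of exon of the genes shown (y axis, percent), 1 bar for each of the 6 libraries. In the JAK panel the Jak2 block is thicker and the Tyk2 block thinner in all 3 SKI-II libraries than in any DMSO library, and in the STAT panel Stat6 is the thickest block throughout.

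Among the STATs, none of the 3 genes was called, and for each of them the libraries of the groups overlapped. Stat6, the factor of IL-4 and IL-13 signalling, was the most abundant per length (ENSMUSG00000002147, chr10:127642986-127660957, plus strand). Its normalized counts were 3244, 2852 and 2579 in DMSO and 3228, 2851 and 2492 in SKI-II, in replicate order. Both groups thus spanned almost the same range, with means of 2892 ± 334 and 2857 ± 368 (SD, n = 3 each). The log2 fold change was -0.018, with a 95% interval of -0.33 to 0.29 (edgeR adjusted p = 0.935). As folds, that interval runs from 0.797 to 1.22. Stat6 shares 40 exon bases with Nab2 on the opposite strand.

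Stat3, which answers IL-6, IL-10 and related cytokines, was also not called (ENSMUSG00000004040, chr11:100885098-100939540, minus strand). It was at 1382, 1491 and 1549 normalized counts in DMSO and at 1637, 1501 and 1535 in SKI-II. The SKI-II values lay within or just above the range of the DMSO values. The means were 1474 ± 84.5 and 1558 ± 70.8 (SD, n = 3 each), and the log2 fold change was 0.080 (95% interval -0.17 to 0.33, edgeR adjusted p = 0.614). Stat3 shares 72 exon bases with Stat5a on the opposite strand.

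Stat2, a factor of type I interferon signalling, was the most variable of the 3 (ENSMUSG00000040033, chr10:128270559-128292849, plus strand). Its normalized counts were 1260 in DMSO replicate 1 and 938 and 861 in replicates 2 and 3, against 1006 in SKI-II replicate 1 and 718 and 766 in replicates 2 and 3. In both groups replicate 1 was the highest library, and SKI-II replicate 1 lay above DMSO replicates 2 and 3. The means were 1020 ± 211 and 830 ± 154 (SD, n = 3 each), and the log2 fold change of -0.30 (95% interval -0.70 to 0.11) was not called (edgeR adjusted p = 0.224).

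Per length, Stat6 held 54.2% ± 1.65 of the summed level of Stat2, Stat3, Stat5a, Stat5b and Stat6 in DMSO and 58.0% ± 2.81 in SKI-II (SD, n = 3 each). Stat3 held 12.9% ± 1.81 and 14.7% ± 0.905, and Stat2 14.1% ± 1.67 and 12.5% ± 1.18. Stat5a, which is outside the set, took 6.90% ± 0.786 and 3.95% ± 0.660.

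Of the SOCS genes, only Socs3 had enough reads to test. Socs3 encodes the inhibitor that binds gp130 and JAK2 and limits IL-6 signalling (ENSMUSG00000053113, chr11:117966079-117970047, minus strand). It was read at 121, 84.7 and 168 normalized counts in DMSO and at 99.6, 115 and 73.3 in SKI-II, in replicate order. The DMSO libraries differed from each other by more than the groups did, and 2 of the 3 SKI-II values lay inside the DMSO range. The means were 125 ± 41.9 and 96.1 ± 21.3 (SD, n = 3 each), and the log2 fold change of -0.38 was not called, with a 95% interval wide enough to hold both a fall to 0.487-fold and a rise to 1.21-fold (edgeR adjusted p = 0.332).

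Socs1 encodes an inhibitor that acts on the JAKs themselves and is induced by interferons (ENSMUSG00000038037, chr16:10782240-10785536, minus strand). With the vehicle, replicates 1, 2 and 3 gave 5, 0 and 0 raw counts, against 4, 5 and 1 after SKI-II, so the groups overlapped. With 5 counts in all against 10, the ratio of SKI-II to DMSO after scaling was 1.79, with an exact 95% interval of 0.556 to 6.66 that covers counting error only. A difference in Socs1 within that interval could not be told from none at this depth.

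Cish encodes CIS, which competes with STAT5 for docking sites on receptors (ENSMUSG00000032578, chr9:107296026-107302784, plus strand). It had 0 counts in all 6 libraries, as had the antisense gene Gm17041, which shares 479 exon bases with it. A count of 0 allows up to 3 counts over the libraries of a group, which is 0.0659 CPM in DMSO and 0.0588 in SKI-II. Of the 3 genes with the letters searched, Cish thus had no reads, Socs3 was low, and Stat2 was well expressed.

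Ordered by normalized counts per kilobase in DMSO, the set ran Stat6, Jak1, Tyk2, Jak2, Stat2, Stat3, Socs3, Socs1 and Cish. Stat6 stood at 657 ± 75.9 and Jak1 at 465 ± 35.5 (SD, n = 3), and their libraries did not overlap. Tyk2, at 272 ± 9.33, lay above all libraries of the next gene, Jak2, at 186 ± 19.1. Stat2 (172 ± 35.7) overlapped both Jak2 and Stat3 (155 ± 8.87), while every Jak2 library, at 172 or more, lay above every Stat3 library, at 163 or less. Socs3 followed at 43.2 ± 14.5, and Socs1 at 0.557 was near 0.

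In SKI-II the order was Stat6, Jak1, Jak2, Tyk2, Stat3, Stat2, Socs3, Socs1 and Cish. Stat6 stood at 649 ± 83.6 and Jak1 at 540 ± 36.7 normalized counts per kilobase (SD, n = 3), with ranges of 566 to 733 and 498 to 567 that touch. Jak2 at 277 ± 44.4 now lay above Tyk2 at 209 ± 4.39 in all libraries. Stat3 (163 ± 7.43) and Stat2 (140 ± 26.1) overlapped, and Socs3 was at 33.2 ± 7.36. In both groups the kinases and STATs were thus read at levels several times that of Socs3, the best expressed of the 3 inhibitors.

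Other genes of the 3 families were read with the same test. Stat5a, a factor of GM-CSF and IL-3 signalling, was at 572, 595 and 607 normalized counts with the vehicle, against 298, 295 and 343 with SKI-II. It fell by 0.92 on the log2 scale (edgeR adjusted p = 0.000683), with no overlap between the groups, while Stat2, Stat3 and Stat6 were not called. That difference between STATs was not itself tested. Socs6 rose by 0.67 on the log2 scale (adjusted p = 0.00307) and Socs7 fell by 0.65 (adjusted p = 0.00831), 2 members of the SOCS family that are not known as classical cytokine-induced inhibitors. Socs2, another target of STAT5, had 3 counts over the DMSO and 8 over the SKI-II libraries (ratio 2.38, exact 95% interval 0.572 to 13.9), and Stat4 had none.

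**Figure D3:**
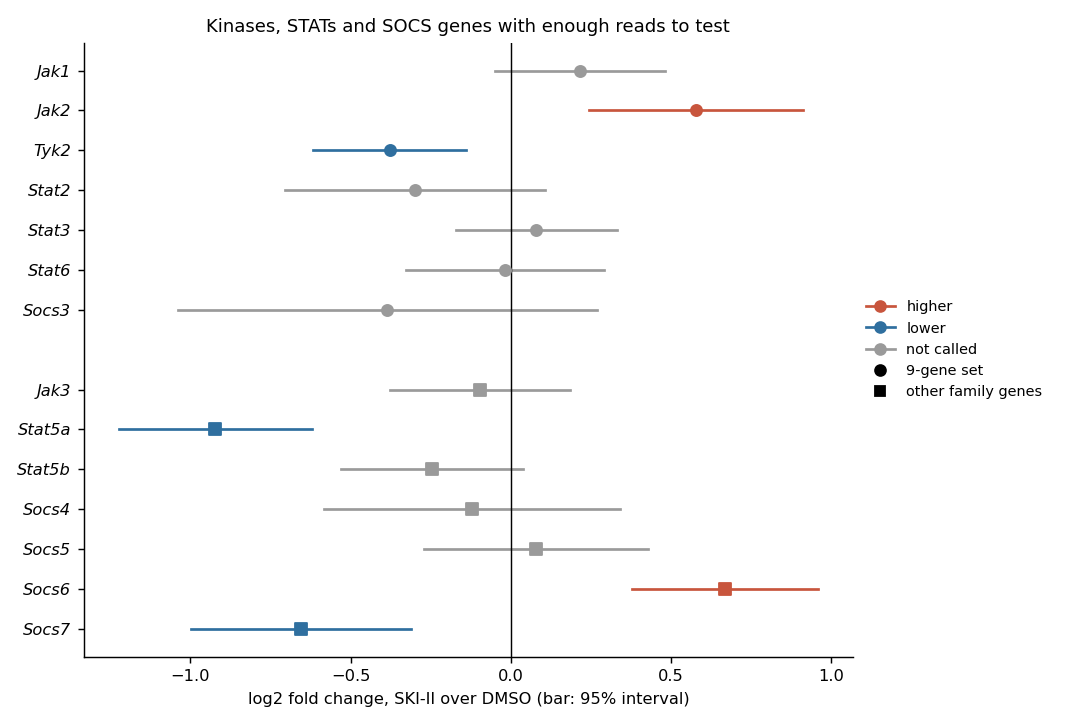
Log2 fold change of SKI-II over DMSO (x axis) with its 95% interval for the 7 tested genes of the set (circles) and 7 other tested genes of the 3 families (squares), coloured by call at an adjusted p below 0.05. The interval of Jak2 lies above 0 and that of Tyk2 below it, the other 5 circles have intervals that include 0, and Stat5a lies farthest to the left.

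The lists of the wider pathway hold 164 other genes, each counted once, of which 112 were tested, 24 called higher (21.4%, against 18.4% of all tested genes) and 29 lower (25.9%, against 19.7%), with a median log2 fold change of -0.10. Among the receptors that use these JAKs, 3 of 24 tested were called higher (12.5%) and 8 lower (33.3%). The called gene of largest change was Lifr, the LIF receptor, with 54 counts over the DMSO libraries and 1 over those of SKI-II (ratio 0.0165, exact 95% interval 0.000411 to 0.0962), all of it in replicate 2. Crlf2, the TSLP receptor, fell as well (log2 fold change -3.19, or -4.29 without SKI-II replicate 3). Osmr and Il23r, receptor chains for OSM and IL-23, had 0 counts in all 6 libraries, with the same limit as Cish. Both chains of the interferon-gamma receptor, which binds JAK1 and JAK2, were among the lower, with log2 fold changes of -0.94 for Ifngr1 and -0.51 for Ifngr2, the latter lost without DMSO replicate 3 (adjusted p = 0.0567) or SKI-II replicate 2 (0.0574). Il6ra, the IL-6 receptor whose signal runs through STAT3, fell by 0.96, and Il13ra2, the decoy receptor of IL-13, rose by 1.21. The others called higher were Csf2ra and Csf2rb2, chains of the GM-CSF and IL-3 receptors. They rose by 0.78 and 0.62 (edgeR adjusted p = 0.00277 and 0.0217). The call of Csf2rb2 was lost without DMSO replicate 2 or 3 or SKI-II replicate 1 (adjusted p = 0.0725, 0.0586 and 0.0729). The type I interferon receptor chains that hold TYK2 and JAK1 were not called, at -0.14 for Ifnar1 (95% interval -0.41 to 0.13) and 0.20 for Ifnar2 (-0.10 to 0.50).

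Of the ligands, 3 of 8 tested were called higher (37.5%) and 0 lower by edgeR, beside 18.4% and 19.7% of all tested genes. The count of 0 lower was the same at an unadjusted p below 0.05, by DESeq2 and by limma-voom. Il23a, the subunit of IL-23 that gives it its name, whose receptor uses JAK2 and TYK2, went from 1.94, 11.4 and 7.92 to 222, 129 and 178 normalized counts (log2 fold change 4.67, adjusted p = 5.76e-05). Il12b, which codes for the other subunit of IL-23, had 0 counts in all 6 libraries. Lif and Osm, gp130 cytokines that signal through JAK1 and STAT3, rose by 1.32 and 0.97. Il6, chosen after its values were seen, had 0 counts in each DMSO library and 4, 0 and 8 after SKI-II, and was too low to test.

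Of 13 phosphatases, PIAS proteins and other inhibitors, 0 were called higher by edgeR and 3 were called lower (23.1%). The count of 0 higher was the same at an unadjusted p below 0.05, by DESeq2 and by limma-voom. Over all tested genes 18.4% were called higher and 19.7% lower, and the other lists of this paragraph are to be read beside the same shares. Usp18, which shuts off the interferon receptor, fell by 1.60 on the log2 scale (adjusted p = 0.000162), and Ptpn6, the phosphatase SHP-1, by 1.08 (adjusted p = 0.00261). The third, Ptpn1, a phosphatase of JAK2 and TYK2, fell by 0.47, with an adjusted p of 0.0104 that became 0.0521 without SKI-II replicate 2. Of the 6 partners that build a ubiquitin ligase around the SOCS box, 2 were called higher (33.3%) and 0 lower (0 likewise at an unadjusted p below 0.05 and by both other tools). Only 1 of these calls was left with any 1 library left out, since Cul5, the cullin of the complex, had adjusted p-values of 0.0511 to 0.0843 in those fits, and 1 gene, Ube2f, was called lower without DMSO replicate 1 (log2 fold change -0.46, adjusted p = 0.0402). Of 9 STAT partners and adaptors, 1 was called higher and 2 lower (11.1% and 22.2%), and the latter count was 0 without DMSO replicate 1 or SKI-II replicate 2, stayed at 2 without DMSO replicate 3, and was 1 in the other 3 such fits. The count of higher calls was 2 without DMSO replicate 3 or SKI-II replicate 2, where Stam was also called (adjusted p = 0.0337 and 0.0376).

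Genes known as targets of the STATs were counted list by list, beside shares of 18.4% called higher and 19.7% lower over all tested genes. Of 17 tested targets of STAT3, 8 were called higher (47.1%) and 3 lower (17.6%), with a median of 0.31. Myc, a growth regulator with many other inputs, rose by 3.24, and Il1rn, the antagonist of the IL-1 receptor, fell by 1.81 (adjusted p = 1.56e-05). With 1 library left out in turn, 6 to 8 of these genes were called higher and 1 to 4 lower, the count of 1 being without DMSO replicate 3 or SKI-II replicate 2. Socs3, itself a target of STAT3, was not among the called genes. Of 7 tested targets of STAT5 and STAT6, 5 were called higher (71.4%) and 1 lower (14.3%), with a median of 1.38. The lectin gene Clec10a rose by 2.20, and the mannose receptor gene Mrc1 fell by 1.61. The call of Mrc1 was lost without replicate 1 or 3 of DMSO (adjusted p = 0.0535 and 0.0556) and without replicate 1 or 2 of SKI-II (0.0648 and 0.0843), and with 1 library left out in turn 4 to 5 genes of this list were called higher and 0 to 2 lower. Tgm2 was called lower without DMSO replicate 1 (adjusted p = 0.0149) and, beside Mrc1, without SKI-II replicate 3 (0.0343, log2 fold change -0.73). The lists were written by hand from general knowledge with earlier results of these data known, and they give no measure of the activity of a STAT.

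**Figure D4:**
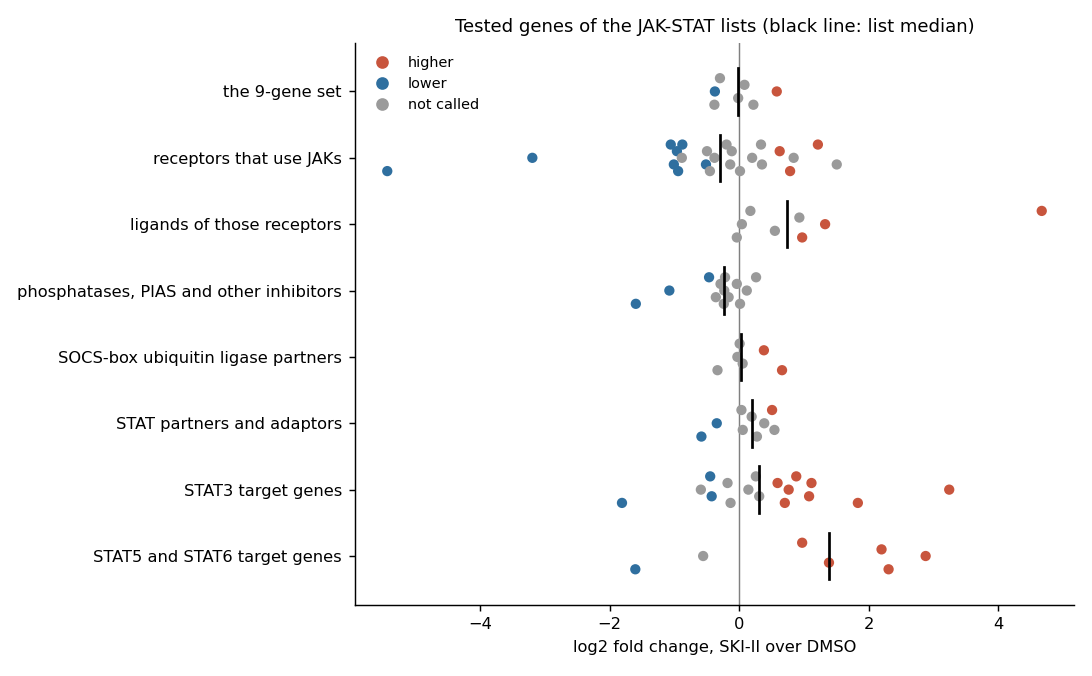
Log2 fold change of SKI-II over DMSO (x axis) for every tested gene of the 9-gene set and of 7 other lists, 1 point for each gene, coloured by call at an adjusted p below 0.05, with a black line at the list median. The 9-gene set stays between -0.38 and 0.58, while the points of the other lists reach from below -4 to above 4; the leftmost point is the receptor gene Lifr, with 54 counts in DMSO and 1 in SKI-II.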

How the data were processed

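Poly(A) RNA was sequenced from 3 DMSO and 3 SKI-II libraries. The labels do not state that the libraries came from separate cultures, so the p-values measure the spread between these libraries. The deposited values are raw counts of reads for each Ensembl gene, which the authors made without normalization. The submitters' processing notes name Trimmomatic 0.36, STAR 2.5.2b, featureCounts of Subread 1.5.2 and DESeq2. Nothing in the sources used here gives the genome build, annotation or strandedness. Names, positions and merged exon lengths are those of GENCODE M21 on GRCm38, which named 49056 identifiers.

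Groups were compared with edgeR 4.0.16 in R 4.3.3 (TMM scaling, factors 0.941 to 1.05, default expression filter, quasi-likelihood test, Benjamini-Hochberg adjustment over 12274 genes). Tested genes held at least 99.87% of the counts of each library. The common biological coefficient of variation was 17.5%. Replicates differed by more than sampling noise (chi-square per degree of freedom 15.4 to 58.1). The 9 genes and the lists were chosen with earlier results of these data known. Besides the 9 genes, names were taken mostly from the 3 called genes of each list with the largest change, the largest opposed one, and called receptors and ligands. Some genes of each of these kinds are left out, so a gene named is not always the one with the largest change in its list. Genes with no call or too few reads are named only with their values. The alternatives were DESeq2 1.42.0, limma-voom (limma 3.58.1), RLE scaling, library size alone, no filter, a minimum of 10 counts in all libraries, leaving out libraries in turn, a replicate block, and edgeR's test against a threshold of 1 (log2). The programs were tested on simulated data. Figures were drawn with matplotlib 3.10.9. Results of 1 of the lists and of some genes are not reported here.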

Additional observations from a re-analysis of the deposited data

How the results depend on the processing

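Over the 13 other settings that gave a value, the log2 fold change of Jak2 lay between 0.50 and 0.70 and that of Tyk2 between -0.40 and -0.36. Jak2 was called in 11 settings and Tyk2 in 10. With each library left out in turn, the number of genes of the set called higher or lower was 0 to 1 in each direction, and was 0 in both without replicate 2 of the DMSO group and without replicate 2 of the SKI-II group. With no filter on low counts, 0 were called lower. The cause was not tested. The uncalled genes stayed uncalled, with Stat6 between -0.12 and 0.070. With the replicate number as a replicate block, 1 gene of the set was called higher and 1 lower, as without it, and 2765 and 2819 of all genes against 2255 and 2413. Libraries of the same number deviated together with correlations of 0.246, 0.0099 and 0.458, not all above 0.1, and DMSO replicate 1 correlated best with SKI-II replicate 2 (0.296), so the numbers were not taken to pair the libraries. Socs1 fell below the filter on low counts and Cish had no counts, and the spread of Socs3 limits what could be called for it.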
